A study of Mus musculus with 12 samples.

Results

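Cytosolic ribosomal protein genes encode the protein part of the large and small subunits of the ribosome that translates nuclear messenger RNA. Members were the genes whose only symbol in the platform annotation is that of a cytosolic ribosomal protein (Rpl or Rps with a number, the stalk genes Rplp0 to Rplp2, and Rpsa), without kinases, pseudogene symbols and Rpl7. The rule found 45 members, 23 of the large and 22 of the small subunit, among 18193 genes with a probe set of 1 symbol, and took for each gene the probe set with the highest mean over 12 arrays. A further 28 symbols of the rule occur only on probe sets that carry several symbols, and these genes are not described here.

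The arrays held RNA of untreated mice aged 2 months, either wild type or Gdap1 knockout with exon 5 of Gdap1 deleted. The Gdap1 protein sits in the outer membrane of mitochondria, and its gene is mutated in forms of Charcot-Marie-Tooth neuropathy. Motoneurons taken by laser dissection and total lysate of sciatic nerve, where Schwann cells abound, were each measured on 3 arrays per genotype, which the labels call biological replicates. The design text speaks of RNA from 5 mice and of samples picked by RNA amount and quality. It also places the Gdap1 probe sets in exons 4 and 6, outside the deletion, so they check nothing about the labels.

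Ribosomal proteins are made in matched amounts, and most of their messenger RNAs begin with a cytosine and a run of pyrimidines, the 5′ terminal oligopyrimidine (TOP) tract. Through this tract mTOR signalling and the protein Larp1 control their translation together. In neurons, ribosomes fill the cell body and also reach axons, where ribosomal protein messenger RNAs are among the transcripts found. Schwann cells of the nerve use them for the large output of myelin proteins. Several members also have paralogs with a narrower distribution, such as Rpl3l in striated muscle and Rpl39l in the testis.

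The start regions of members on which the results below turn show how unevenly the TOP tract is seen at annotated starts. Each line gives 40 bases before and 20 bases from the RefSeq transcript start on (build GRCm38.p6), written 5′ to 3′ on the gene's strand. Capitals mark a C followed by at least 4 pyrimidines that begins within 10 bases of the start. A run that begins further upstream is marked only from 10 bases before the start on, as in Rps27l. Where too few of its bases remain there, nothing is marked, as in Rps25, whose pyrimidine run lies mostly further upstream.
Rps26 (chr10:128626487-128626546, minus strand): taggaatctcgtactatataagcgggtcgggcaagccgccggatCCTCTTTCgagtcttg
Rps10 (chr17:27635225-27635284, minus strand): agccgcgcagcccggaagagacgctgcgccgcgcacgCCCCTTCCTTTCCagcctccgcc
Rps6 (chr4:86857348-86857407, minus strand): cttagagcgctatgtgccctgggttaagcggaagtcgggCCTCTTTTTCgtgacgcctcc
Rps27l (chr9:66946046-66946105, plus strand): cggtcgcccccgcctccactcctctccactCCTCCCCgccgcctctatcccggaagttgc
Rps25 (chr9:44407674-44407733, plus strand): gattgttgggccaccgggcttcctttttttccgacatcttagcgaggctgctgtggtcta
Rplp0 (chr5:115559427-115559486, plus strand): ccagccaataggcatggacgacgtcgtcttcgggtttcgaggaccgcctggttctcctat
Rpl27 (chr11:101442205-101442264, plus strand): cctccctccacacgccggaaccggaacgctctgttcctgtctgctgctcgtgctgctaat
Rpl3l (chr17:24727786-24727845, plus strand): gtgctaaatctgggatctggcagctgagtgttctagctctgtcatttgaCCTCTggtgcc
The RefSeq table held 48 starts for 40 members, and 27 of these (56.2%) had such a tract, against 30.7% of all 32851 starts. The ETS core CCGGAAG, read on both strands over 300 bases, was in 41.7% of member starts and 8.86% of all. The YY1 core AAGATGGCG was in 4.17% against 1.4%, the SP1 box GGGCGG in 50.0% against 35.7%, and TATAAA in 10.4% against 13.6%. These letter matches describe the sequence at annotated starts. The genes printed above without capitals include ones whose values lay higher in knockout motoneurons and ones whose values lay lower.

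Before any comparison, the members were near the top of the measured range in nerve and spread more widely in motoneurons. Values are deposited log2 expression values, which depend on each probe set's own probes and are not compared between genes. In nerve, 33 of 45 members had a mean above 14 in each genotype, while the highest value on an array was 15.52 to 15.55. In motoneurons, 19 members in wild type and 20 in knockout did, with array maxima of 15.16 to 15.22. Replicates lay close together: the median SD of a member within a group was 0.024 to 0.056, against 0.18 to 0.21 over all probe sets. Most members were much brighter than most probe sets, and the part of brightness in this narrow spread was not tested. The members with means below 10 in nerve were Rpl3l, Rpl12, Rpl37, Rpl39, Rpl39l, Rps16 and Rps27, and 9 members were below 10 in motoneurons. Of the chosen probe sets, 11 end in _x_at and 2 in _s_at, which marks probes shared with other transcripts, so signal of near-identical copies may be mixed in them.

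**Figure D1:**
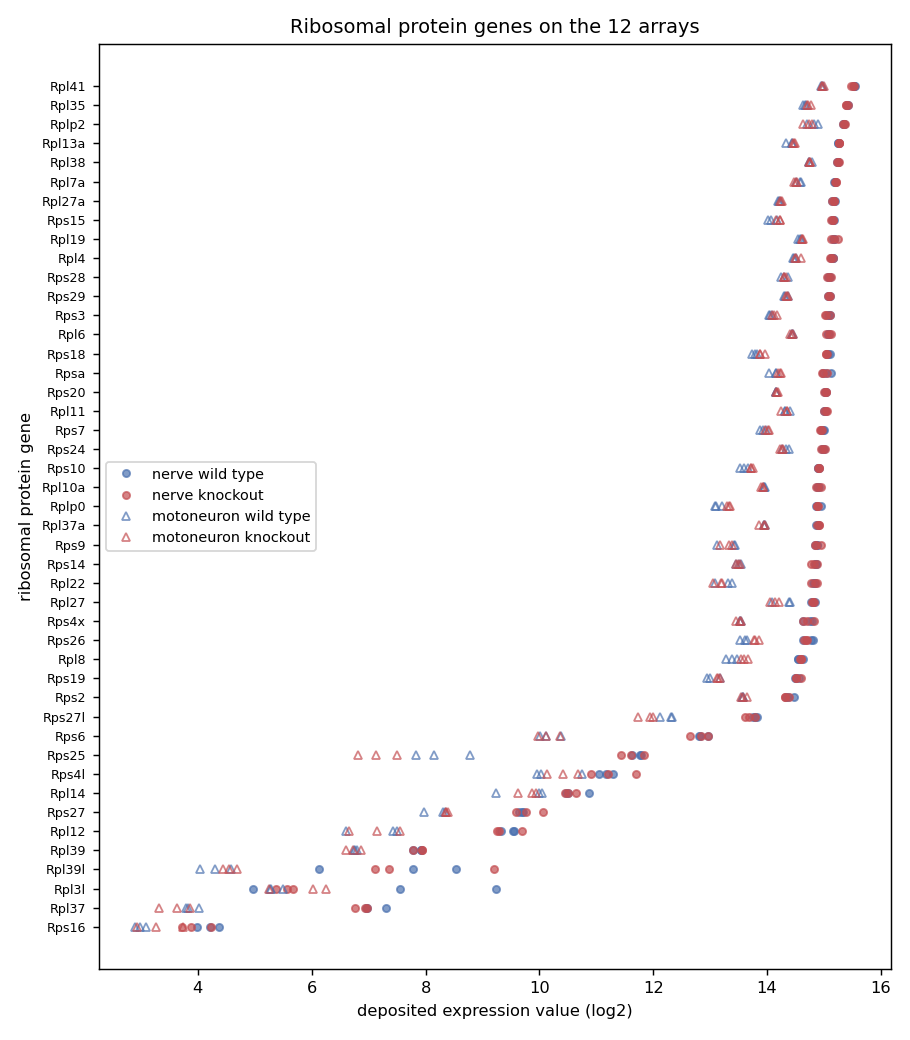
Deposited log2 value (x axis) of each ribosomal protein gene (y axis, sorted by its mean in wild type nerve) on all 12 arrays. Filled circles are nerve and open triangles motoneurons, blue for wild type and red for knockout. Most genes form a tight column above 14 in nerve with motoneuron values to its left, while Rps25, Rpl3l and Rpl39l spread widely.

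Marker genes of the labelled tissue were high in each, and those of neighbouring neurons were also high in the captures. The mean log2 value of 19 motoneuron markers was 7.43 to 7.82 on nerve arrays and 11.80 to 12.06 on motoneuron arrays. For 13 myelin and Schwann cell markers it was 14.14 to 14.38 in nerve and 9.64 to 10.01 in motoneurons. Chat, the enzyme that makes acetylcholine, stayed low on motoneuron arrays by its only probe set here, at 4.19 to 5.30, whereas Mnx1, a motoneuron transcription factor, read 9.33 to 9.74 there. The mean of 13 spinal interneuron genes was 8.96 to 9.83 on motoneuron arrays and 5.40 to 6.18 in nerve, and Slc6a5, the glycine transporter of inhibitory neurons, read 11.92 to 13.12 on motoneuron arrays. Among wild type motoneuron arrays that mean was 9.83, 9.82 and 8.96, and among knockout arrays 9.81, 9.01 and 9.78, so wild type replicate 3 and knockout replicate 2 were low. Array medians were 8.29 to 8.40 in nerve and 6.54 to 6.59 in motoneurons. Xist, transcribed from the inactive X chromosome, was high only in wild type replicate 2 and knockout replicate 3 of nerve (12.49 and 12.54) and low only in knockout replicate 2 of motoneurons (5.18).

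In sciatic nerve no difference between the genotypes was detected for any ribosomal protein gene. None of the 45 members passed an adjusted p of 0.05 by limma, where 0.0% of all 45037 probe sets passed, and every member's adjusted p was 1. None had an unadjusted p under 0.05, which 2.31% of all probe sets had. The median log2 difference, knockout minus wild type, was -0.0056 for members and 0.010 for all probe sets, with 20 members above 0 and 25 below. The differences of 40 members lay within 0.1 of 0. In the large subunit 14 of 23 were positive, and in the small subunit 6 of 22, with medians of 0.0035 and -0.019. Knockout and wild type arrays did not overlap for 2 members, Rpl7a (higher) and Rpl41 (lower), against 7.26% of all probe sets. Depth cannot be given for arrays. The precision is limited by their number, and in simulated nerve values a log2 change of 0.5 was recovered for 4.48% and of 1 for 35.8% of changed probe sets. The changed probe sets were drawn at random from all probe sets, whose median SD in wild type nerve was 0.18, against 0.024 for members. These shares therefore do not describe the members.

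Core members of the translation machinery illustrate this narrow spread in nerve. Rps6, a small-subunit protein phosphorylated downstream of mTOR, read 12.82, 12.97 and 12.80 in wild type and 12.65, 12.96 and 12.84 in knockout. Rplp0, the base of the stalk that recruits elongation factors, read 14.87, 14.95 and 14.86 against 14.87, 14.89 and 14.88. The genotypes overlapped for both genes. Rps19, the gene most often mutated in Diamond-Blackfan anaemia, differed by 0.015, and Rpl11, which binds Mdm2 when ribosome assembly fails, by 0.017. Rpl37a, the only member on chromosome 1, where Gdap1 also lies, differed by 0.020, a value that turned to -0.021 when arrays were centred on their medians. The X-linked members Rps4x and Rpl39 differed by -0.0071 and 0.0055.

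The paralogs gave the widest nerve values. Rpl3l, the striated muscle counterpart of Rpl3, read 9.23, 4.96 and 7.55 in wild type and 5.67, 5.56 and 5.38 in knockout. It was high on wild type replicates 1 and 3 and low on replicate 2, so the genotypes overlapped (difference -1.71, SE 0.93, adjusted p = 1 by limma). The mean of 23 skeletal muscle genes ran 12.44, 8.20 and 11.13 in wild type and 9.95, 9.14 and 9.70 in knockout. Of those 23 genes 21 had a negative difference, with a median of -0.93, and none passed. The part of muscle RNA in the Rpl3l values was not tested. In a lysate, fewer cells of a type and less RNA per cell cannot be told apart.

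**Figure D2:**
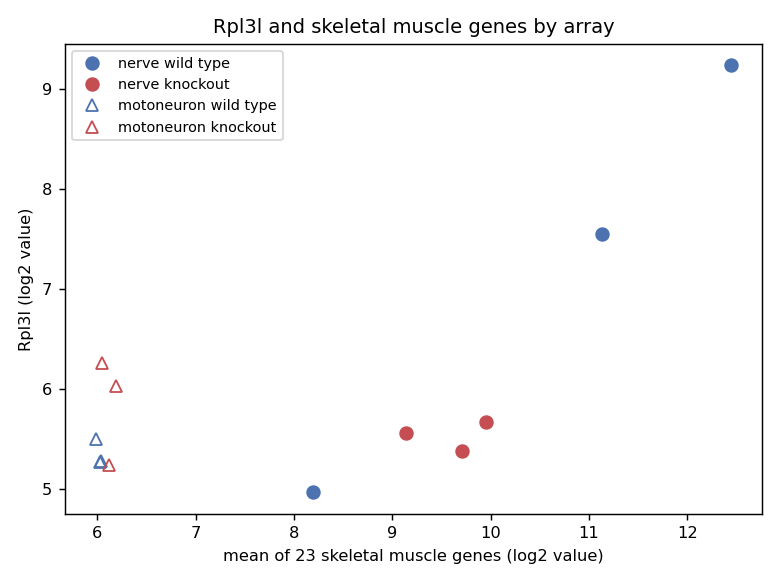
Rpl3l (y axis, log2 value) against the mean log2 value of 23 skeletal muscle genes (x axis) on each of the 12 arrays. Wild type nerve replicates 1 and 3 are high on both axes, and wild type nerve replicate 2 is the lowest nerve array on both. Motoneuron arrays (triangles) have muscle means of 5.99 to 6.19.

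Rpl39l, the counterpart of Rpl39, read 7.78, 8.53 and 6.13 in wild type nerve and 7.36, 9.20 and 7.10 in knockout nerve. Replicate 2 was the highest in each genotype. The difference of 0.40 (adjusted p = 1 by limma) became -0.27 without wild type replicate 3 and -0.25 without knockout replicate 2. The mean of 8 adipocyte genes was also highest on replicate 2, at 13.09 against 12.90 and 12.21 in wild type and 13.22 against 12.79 and 12.26 in knockout. In both genotypes replicate 2 was also the highest for the fibroblast, the microglia and macrophage, and the endothelial and mural genes. For the remaining cell type lists it was not the highest in both. The part of any of these cells in Rpl39l was not tested. Rps27l, a paralog of Rps27 that p53 induces, differed by -0.084 in nerve, and Rps27 itself by 0.12. Rps4l, which RefSeq lists as a transcribed pseudogene, differed by 0.10.

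In captured motoneurons the members' differences were small and ran in both directions. In the unweighted fit of the 6 motoneuron arrays no member had an adjusted p under 0.05 by limma (0.0% of all probe sets), and the smallest was 0.13. An unadjusted p under 0.05 was found for 7 of 45 members, 5 higher and 2 lower in knockout, where 17.0% of all probe sets had one. The share of members is therefore near the background. The median difference was 0.021 for members and 0.039 for all probe sets, with 26 members above 0 and 19 below. Genotypes did not overlap for 14 members, 11 higher and 3 lower, against 22.5% of all probe sets. The small subunit had 15 of 22 positive (median 0.048) and the large subunit 11 of 23 (median -0.0021). In simulated motoneuron values a change of 0.5 was recovered for 2.99% and of 1 for 31.3% of changed probe sets. These were again drawn from all probe sets, whose median SD in wild type motoneurons was 0.21, against 0.056 for members. The shares therefore do not describe the members.

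**Figure D3:**
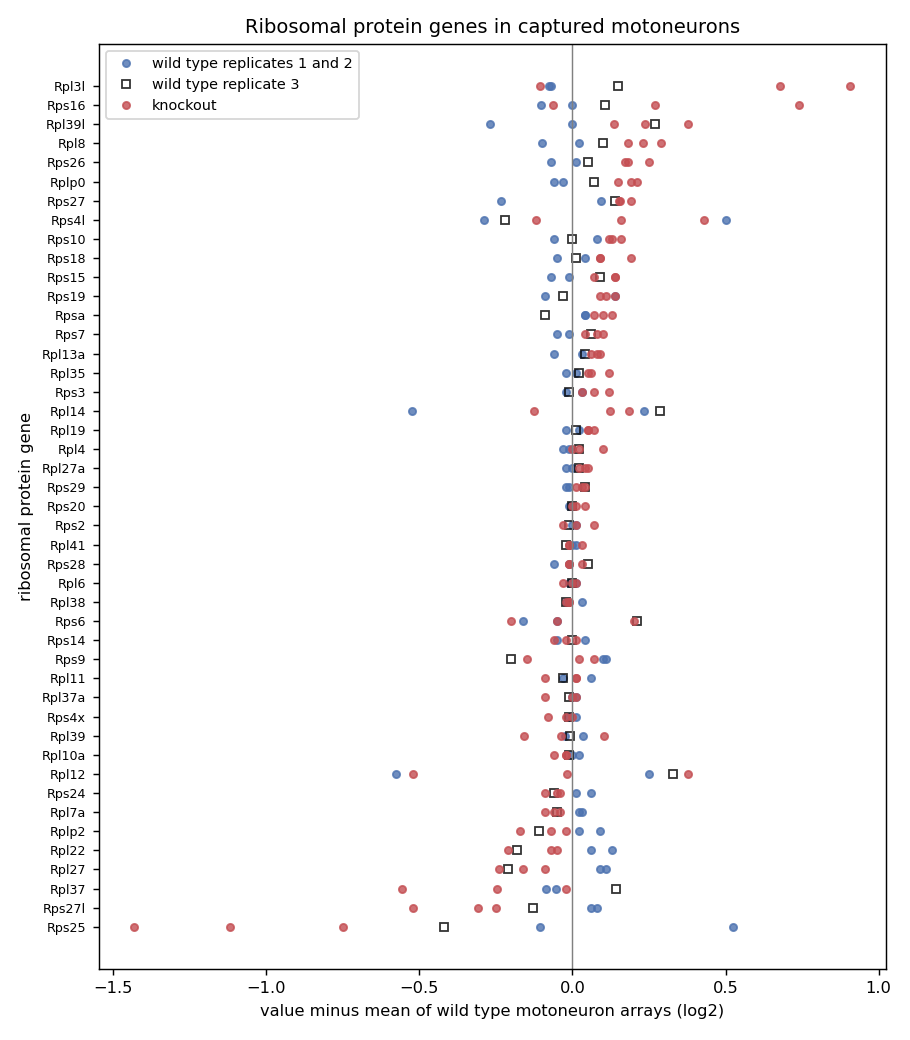
Value of each ribosomal protein gene on the 6 motoneuron arrays (x axis, log2, relative to the mean of the 3 wild type arrays), with genes sorted by the knockout minus wild type difference. Red points are knockout, blue points wild type replicates 1 and 2, and open squares wild type replicate 3. Knockout values lie right of all wild type values for Rps26, Rpl8 and Rplp0, and left of them for Rps25 and Rps27l.

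Among small-subunit members, Rps26, which lines the channel where messenger RNA leaves the ribosome, read 13.53, 13.61 and 13.65 in wild type and 13.77, 13.85 and 13.78 in knockout. All knockout arrays were above all wild type arrays (difference 0.20, SE 0.049, adjusted p = 0.13 by limma). Rps10 and Rps18, proteins of the head of the small subunit, differed by 0.14 (adjusted p = 0.231) and 0.12 (adjusted p = 0.256), also without overlap. The 6 probe sets of Rps10 all had positive differences, from 0.038 to 0.28. Those of Rps18 ranged from -0.59 to 0.58, and the mean over its probe sets gave -0.060. Rps18 therefore has no direction that holds over its own probe sets. Rpsa, also known as a laminin receptor, read 14.16, 14.16 and 14.03 in wild type and 14.22, 14.19 and 14.25 in knockout, without overlap but with an adjusted p of 0.326 by limma.

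Rps25, a small-subunit protein used in initiation at internal ribosome entry sites, had the most negative difference. It read 8.14, 8.77 and 7.83 in wild type and 7.50, 7.13 and 6.82 in knockout. Every knockout array was below every wild type array, but the wild type arrays themselves were widely spread (difference -1.10, SE 0.30, adjusted p = 0.147 by limma). Rps25 rests on a single probe set, at percentile 83.6 of all probe sets in wild type nerve and 62.0 in wild type motoneurons (group medians). On each of these arrays most members lay above percentile 95. Its nerve values of 11.44 to 11.83 overlapped between genotypes.

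Rps27l read 12.33, 12.31 and 12.12 in wild type motoneurons and 11.94, 12 and 11.73 in knockout. The knockout arrays were all lower (difference -0.36, SE 0.10, adjusted p = 0.155 by limma). Its 3 probe sets gave -0.31, -0.35 and -0.36. Its paralog Rps27 differed by 0.17 on a probe set of 8.30, 7.98 and 8.35 in wild type and 8.40, 8.37 and 8.36 in knockout, again without overlap. The paralogs Rps4x and Rps4l differed by -0.030 and 0.16, and Rpl39 and Rpl39l by -0.032 and 0.25, with overlap in all of these.

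In the large subunit, Rpl8, which sits beside the peptidyl transferase centre, read 13.39, 13.27 and 13.47 in wild type and 13.55, 13.66 and 13.60 in knockout (difference 0.23, SE 0.063, adjusted p = 0.153 by limma). Rplp0 read 13.11, 13.08 and 13.21 against 13.33, 13.29 and 13.35 (difference 0.19, SE 0.055, adjusted p = 0.166). Knockout arrays were above wild type arrays for both genes. The other stalk member, Rplp2, read 14.83, 14.90 and 14.70 against 14.79, 14.64 and 14.74, with overlap and a difference of -0.085. Rpl27, a gene linked to Diamond-Blackfan anaemia, read 14.39, 14.41 and 14.09 in wild type and 14.21, 14.06 and 14.14 in knockout. Wild type replicate 3 lay among the knockout arrays there, and the 3 probe sets of Rpl27 all had negative differences, from -0.24 to -0.16. Rpl7a and Rps24 differed by -0.064 each, and their arrays overlapped. Rps29 shows how much a probe set matters: the chosen one gave 0.023 and the others 0.30 and 0.22. Over the 22 members with several probe sets, 12 had 1 sign in all of them.

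Some members passed in fits that left out or down-weighted arrays or took in the nerve arrays. Without wild type replicate 3, 7 members did: Rps26 (0.23, adjusted p = 0.0229 by limma), Rpl8 (0.28, adjusted p = 0.0241), Rplp0 (0.23, adjusted p = 0.0248) and Rps15 (0.15, adjusted p = 0.0494) were higher in knockout. Rpl27 (-0.26, adjusted p = 0.0164), Rps27l (-0.43, adjusted p = 0.0317) and Rps25 (-1.31, adjusted p = 0.0326) were lower. Of all probe sets 4.68% then passed as higher and 5.64% as lower. The 3 lower of 45 members are near that background and the 4 higher are above it, on few genes. No test compared them with the background. In each of the other 5 fits that left out 1 motoneuron array, no member passed. With array weights, Rps26, Rpl8 and Rplp0 passed as higher (2.7% of all probe sets did) and Rps27l as lower (3.8%). In a fit over all 12 arrays, Rps25 passed as lower (1.23%).

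Ribosomal RNA on the arrays moved with the same library. The middle 18S control probe set read 13.94, 13.77 and 14.64 in wild type motoneurons and 14.67, 14.67 and 14.66 in knockout, against 14.88 to 15.08 in nerve. The 3′ 18S control read 9.25, 9.11 and 10.27 in wild type and 10.41, 10.48 and 10.14 in knockout motoneurons. The 5′ one read 7.92, 8.45 and 7.67 against 7.86, 7.54 and 7.35, and both overlapped between genotypes. With the middle control's level as a covariate, an alternative chosen after the data were seen, no member passed. The Rpl8 difference then shrank to 0.12, that of Rplp0 to 0.11, of Rps25 to -0.61 and of Rps27l to -0.23, and that of Rpl27 turned to 0.052. The control hardly varied among knockout arrays, so its slope rests mostly on wild type replicate 3 against replicates 1 and 2. This fit in effect sets the knockout arrays against wild type replicate 3 and cannot tell 18S level apart from that array. The part of RNA quality in these differences was not tested. The spiked bioB control also divided the genotypes, at 11.17 to 11.44 in wild type and 10.67 to 10.81 in knockout motoneurons, and at 11.54 to 11.80 and 10.58 to 10.70 in nerve. Its part was not tested. Marker genes of some cells around the motoneuron had negative differences in knockout captures: 14 of 16 oligodendrocyte genes (median -0.43), 15 of 20 endothelial and mural genes (median -0.25) and 10 of 15 astrocyte genes (median -0.20). In other lists 12 of 19 microglia and macrophage genes were negative (median -0.026), 5 of 13 spinal interneuron genes (median 0.053) and 13 of 19 motoneuron genes themselves (median -0.092). None of these genes passed. Array means of the oligodendrocyte list were 10.06 to 10.36 in wild type and 9.55 to 9.96 in knockout, those of the endothelial list 6.91 to 7.27 and 6.69 to 6.89, and those of the astrocyte list 10.14 to 10.43 and 9.91 to 10.17. Their part was not tested either.

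The genotype effect in motoneurons was then set against that in nerve by an interaction term over 12 arrays. No member passed by limma (0.0% of all probe sets), and the smallest adjusted p was 0.583. An unadjusted p under 0.05 was found for 6 of 45 members, against 7.54% of all probe sets. The members higher by that measure in motoneurons were Rps26 (0.26), Rpl8 (0.22), Rplp0 (0.20) and Rps18 (0.15), and those lower were Rps25 (-1.0) and Rps27l (-0.28). The Rps18 value turned to -0.036 with the mean of its probe sets. Rpl3l had the largest estimate, 2.21 with an SE of 1.06 (adjusted p = 0.671), which rests on its wild type nerve arrays. The members' median was 0.031 and that of all probe sets 0.022. A difference of genotype effects between the tissues was thus not detectable for any member with these arrays.

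Motoneuron values of ribosomal protein genes lay below nerve values as deposited, and how far depended on the scaling. Array quantiles nearly coincide within a tissue and differ between tissues, from which separate normalization of the tissues was inferred. The difference was therefore fitted on the deposited values, on values quantile normalized together, and on arrays centred on their medians. As deposited, 44 of 45 members were lower in wild type motoneurons by limma, where 67.9% of all probe sets were called lower, and 44 of 45 in knockout, against 67.5%. Only Rpl3l did not pass in either genotype (adjusted p = 0.0851 and 0.324). The median of members was -1.03 in wild type and -0.92 in knockout, close to -1.09 and -1.04 for all probe sets. With arrays centred, 36 members were higher and 4 lower in wild type (54.9% of all probe sets higher), and 37 and 4 in knockout (56.6%). The medians were then 0.73 and 0.86 for members and 0.67 and 0.74 for all. Quantile normalization together gave 36 lower and 1 higher in wild type (32.9% of all probe sets lower) and 36 lower and 2 higher in knockout (33.6%). There the members' medians were -0.47 and -0.38 and those of all probe sets 0.15 and 0.16, so 44 and 42 of 45 members lay below the median of all. Of all calls, 17.4% were higher as deposited in wild type, 54.6% after joint quantile normalization and 69.0% after centring. The direction of the group's log2 difference is therefore set by the scaling. Rank within an array does not change with these scalings. The members' median percentile among all probe sets was 99.55 to 99.58 on nerve arrays and 98.05 to 98.49 on motoneuron arrays. Some members, such as Rpl14 and Rpl39, ranked higher in motoneurons. A rank also depends on the other probe sets of the array, and no test compared the ranks.

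**Figure D4:**
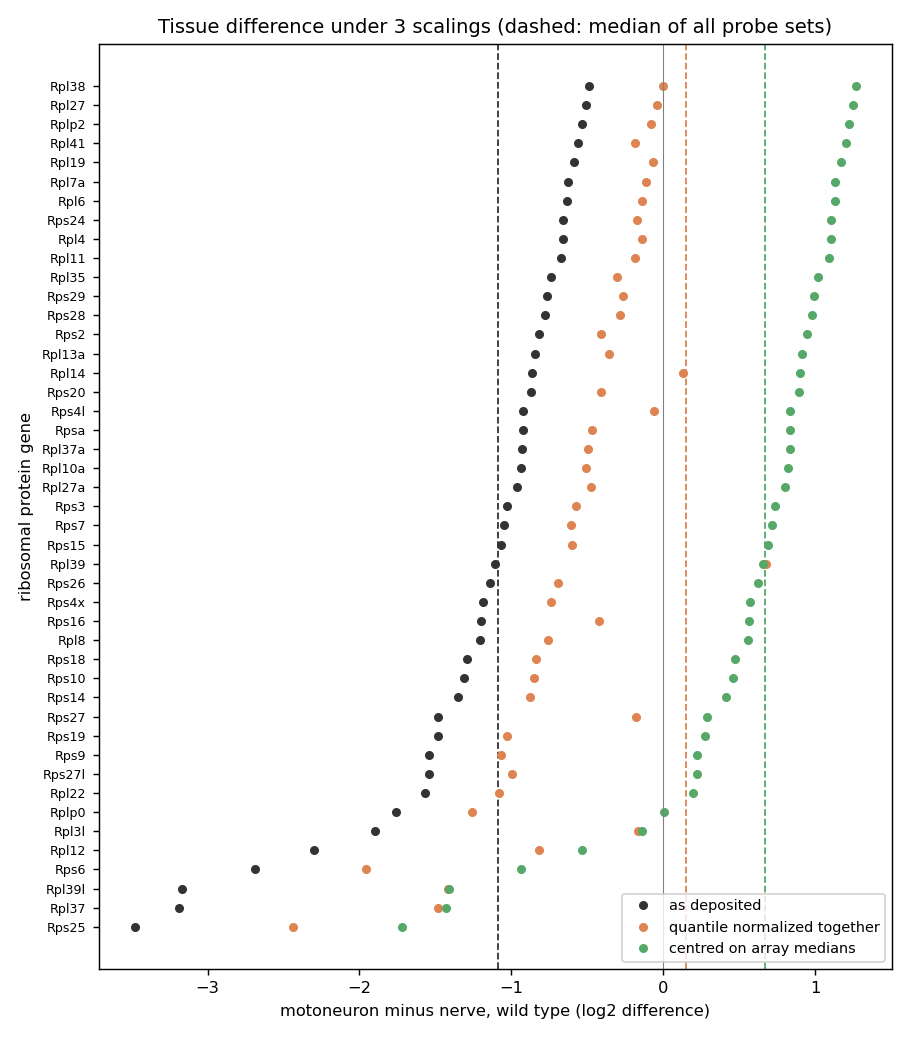
Difference between wild type motoneurons and wild type nerve (x axis, log2) for each ribosomal protein gene, under the deposited scale (black), joint quantile normalization (orange) and centring on array medians (green). Dashed lines are the medians of all probe sets at -1.09, 0.15 and 0.67. Rps25, Rpl37, Rpl39l and Rps6 lie left of 0 in all 3 colours, as do Rpl12 and Rpl3l, which did not pass in all of these fits.

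In all 6 fits of 3 scalings and 2 genotypes, 4 of 45 members were lower in motoneurons: Rps25, Rpl37, Rpl39l and Rps6. Of all probe sets 22.1% were, a larger share than that of the members. Rps25 differed by -3.48 in wild type and -4.48 in knockout as deposited, and by -1.72 and -2.70 after centring. Its nerve values were 11.77, 11.79 and 11.62 in wild type, against the motoneuron values given above. Rps6 read 12.82, 12.97 and 12.80 in wild type nerve and 10.12, 10.01 and 10.38 in wild type motoneurons. The difference was -2.69 (-2.67 in knockout), and after centring -0.93 (-0.89 in knockout). Its second probe set gave -3.07 and -2.65, with low motoneuron means of 4.93 in wild type and 5.17 in knockout. Rpl37, a large-subunit zinc-binding protein, read 6.94, 7.30 and 6.97 in wild type nerve and 3.79, 3.82 and 4.02 in motoneurons, a difference of -3.19. Rpl39l differed by -3.17 and -3.33, with wild type motoneuron values of 4.31, 4.04 and 4.58. These motoneuron values of Rpl37 and Rpl39l are low on the arrays, at the 17.3 and 24.7 percentile of all probe sets in wild type (group medians). In wild type nerve Rpl37 and Rpl39l were at the 35.5 and 44.4 percentile. No detection calls were used here, so whether either was above background in motoneurons is not known and the size of its difference is uncertain. For Rpl37, whether its single probe set was above background in nerve is not known either.

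At the other end, the members that differed least as deposited were Rpl38, Rpl27 and Rplp2, at -0.49, -0.51 and -0.54 in wild type. Rpl38, whose loss in mice disturbs the body axis, read 15.25, 15.25 and 15.23 in nerve and 14.79, 14.74 and 14.74 in motoneurons. Joint quantile normalization put it at -0.0011 and centring at 1.27. Nerve values of these genes lie close to the array maxima, so their place in this order may depend on probe brightness, which was not tested. Rplp0 differed by -1.76 as deposited and by 0.0050 after centring. Rpl12, which binds the base of the stalk, differed by -2.30 in both genotypes as deposited and by -0.54 (adjusted p = 0.0948 by limma) and -0.52 (adjusted p = 0.0962) after centring. The small subunit had a median of -1.16 and the large subunit of -0.86 in wild type. These medians come from probe sets of unequal brightness, and no test compared them.

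Probe sets of the same gene did not give the same tissue difference. Over 97 member probe sets the wild type difference ran from -4.30 to 0.086. In 15 of 22 genes with several probe sets the dimmest had a more negative difference than the chosen one in wild type, and in 14 of 22 in knockout. For Rpl41, a very small peptide of the large subunit, the chosen probe set gave -0.56 and others -3.98 and -4.30. For Rpl35 the chosen one gave -0.74 and the dimmest -4.24, while for Rps24 the chosen one gave -0.66, the dimmest -1.40 and another dim one -3.59. Others went the opposite way: Rpl27a gave -0.96 by its chosen probe set and -0.036 by its dim one. Rps3 gave -1.03 by its chosen probe set, -1.25 by another and 0.086 by its dimmest. Both dim probe sets were low in wild type nerve and motoneurons, at means of 5.27 and 5.23 for Rpl27a and 4.30 and 4.39 for Rps3. Whether they were above background is not known, so their small differences are uncertain. The dim probe sets of Rpl35 (mean 5.30) and Rps24 (4.81 and 5.185) were also low in wild type motoneurons. The size of their large differences is uncertain for the same reason. The single probe sets of Rps25, Rpl37 and Rpl39l allow no such check within their genes, and both probe sets of Rps6 gave differences below -2.6. The size of the difference is uncertain for the second Rps6 probe set, which was low in motoneurons.

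**Figure D5:**
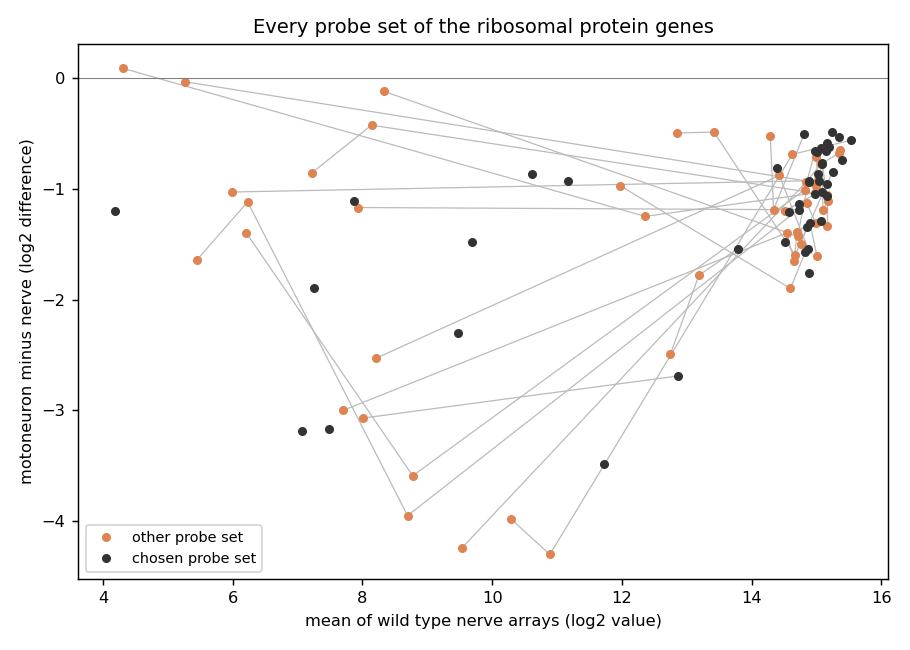
Difference between wild type motoneurons and nerve (y axis, log2, deposited scale) against the mean wild type nerve value (x axis, log2) for all 97 probe sets of the ribosomal protein genes. Grey lines join probe sets of 1 gene, black points are the chosen probe sets and orange points the others. Probe sets with a nerve mean above 14 lie between -1.90 and -0.49, while dimmer ones reach from 0.086 down to -4.30.

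The pathways around the ribosome were read from lists of genes named in the design, none of whose members passed in either genotype comparison by limma. The counts below read against all probe sets in motoneurons, of which 17.0% had an unadjusted p under 0.05 and whose median was 0.039. No test compared the lists with other genes. Of 73 measured ribosome biogenesis genes, 44 had a positive difference in motoneurons (median 0.075), and 21 had an unadjusted p under 0.05. Rrs1, needed to build the large subunit, differed most clearly. It read 12.19, 12.31 and 12.67 in wild type motoneurons and 11.69, 11.60 and 11.62 in knockout (difference -0.75, adjusted p = 0.107). In nerve it read 12.58, 12.69 and 12.69 in wild type and 12.15, 12.14 and 12.05 in knockout (difference -0.55, adjusted p = 1). All knockout arrays were below all wild type arrays in each tissue. Rrs1 lies on chromosome 1, as Gdap1 does. Nop14 and Nop58, nucleolar processing factors, differed by 0.54 and 0.51 in motoneurons (adjusted p = 0.115 and 0.12), and Wdr74 by 0.36 (adjusted p = 0.12).

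Of 42 measured translation factors, 19 had a positive difference in motoneurons and 23 a negative one (median -0.019), and 19 had an unadjusted p under 0.05 (17.0% of all probe sets). Eif3a, the largest subunit of initiation factor eIF3, read 12.44, 12.44 and 12.05 in wild type and 11.75, 11.66 and 11.59 in knockout (adjusted p = 0.108 by limma). Eif5a differed by -0.18 (adjusted p = 0.108) and Tpt1, itself a TOP transcript, by -0.18 (adjusted p = 0.132). Eef1a2, the elongation factor of neurons and muscle, read 12.55, 12.35 and 13.33 in wild type and 13.55, 13.66 and 13.59 in knockout (adjusted p = 0.138). Its wild type replicate 3 stood nearest the knockout arrays, as the middle 18S control did. For 54.3% of all probe sets, that array lay closer to the knockout mean than to the mean of the other wild type arrays. The same held for 24 of the 45 ribosomal protein genes. Such a position is therefore common on that array and not particular to Eef1a2, ribosomal protein genes or 18S.

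Of 28 measured genes of TOP control and mTOR signalling, 11 had a positive and 17 a negative difference in motoneurons (median -0.14), 10 with an unadjusted p under 0.05 (17.0% of all probe sets). Rheb, the GTPase that activates mTOR, differed by -0.63 (adjusted p = 0.12 by limma). Tsc2, which switches Rheb off, differed by 0.65 (adjusted p = 0.146), Mapkap1, a subunit of mTORC2, by 0.62 (adjusted p = 0.117), and Mtor by 0.30 (adjusted p = 0.152). Of 14 measured quality control genes, 6 had an unadjusted p under 0.05, against the same 17.0%. Among these Ltn1, a ubiquitin ligase of stalled ribosomes, differed by -0.31 (adjusted p = 0.12), and Gcn1, a sensor of collided ribosomes, by 0.45 (adjusted p = 0.123). Ccdc124 and Serbp1, which bind idle ribosomes, differed by 0.44 (adjusted p = 0.136) and 0.21 (adjusted p = 0.154).

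Of 8 measured paralogs and fusion genes, 4 of which are also members (Rpl3l, Rpl39l, Rps27l and Rps4l), 3 had an unadjusted p under 0.05 in motoneurons (17.0% of all probe sets). Rpl22l1, the counterpart of Rpl22, read 13.62, 13.73 and 13.50 in wild type and 13.24, 13.31 and 13.29 in knockout, with no overlap (difference -0.34, adjusted p = 0.112 by limma). Rpl22 itself differed by -0.11, with overlap. Rpl7l1 differed by -0.40 (adjusted p = 0.235). Fau, which encodes a small-subunit protein fused to a ubiquitin-like one, differed by 0.096, and Rps3a1 by -0.070. Between tissues, 7 of these 8 were lower in wild type motoneurons on the deposited scale, where 67.9% of all probe sets were lower and the median of all was -1.09. On that scale 39 of 73 biogenesis genes were lower (median -0.41), 28 of 42 translation factors (median -0.49), 17 of 28 TOP control and mTOR genes (median -0.54) and 8 of 14 quality control genes (median -0.50). These counts change with the scaling, as those of the members do.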

How the data were processed

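The 12 Affymetrix arrays were used as the deposited log2 expression values per probe set, made with Affymetrix Expression Console 1.1 per the submitters' processing notes. Their range shows the log2 scale; the sources used here do not name the summarization or the background correction. Of 45101 probe sets, 64 controls were left out. Symbols came from the platform annotation, and all 45 members matched the RefSeq table (GRCm38.p6) by gene identifier.

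In R 4.3.3, limma 3.58.1 (lmFit, eBayes with a mean trend) fitted each comparison over all 45037 probe sets, two-sided, with Benjamini-Hochberg adjustment at 0.05. An exact permutation test of 3 arrays against 3 cannot go below 0.1. Members, lists and tests were chosen with earlier results of these data known. Named members were those that passed in a comparison, up to 6 each way between tissues, or else the 5 higher and 5 lower with the smallest unadjusted p. Not every member picked by this rule is given with its value in that comparison, for example Rps16 in nerve. Paralogs, stalk genes, Rpsa, Rps6, Rps19, Rpl11, members on chromosome 1 and X, and up to 4 genes of each list were also named. Rps15, Rps29, Rpl38, Rpl41, Rpl35, Rpl27a and Rps3 were chosen after their values were seen. The fit was tested on simulated data. Alternatives covered scaling, brightness, probe set choice, array weights, covariates and each array left out. Figures were drawn with matplotlib 3.10.9.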

Additional observations from a re-analysis of the deposited data

How the results depend on the processing

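In nerve no member passed under any alternative run. The members' median was -0.047 with arrays centred on their medians. That setting turned Rpl7a to -0.0207 and Rpl37a to -0.0213, and leaving out 1 array gave -0.00731 to 0.231 for Rps27, -0.27 to 0.927 for Rpl39l and -0.113 to 0.28 for Rps4l. In motoneurons the number passing was 1 lower in a fit of all 12 arrays, 3 higher and 1 lower with array weights, and from 0 to 4 higher and 0 to 3 lower over fits leaving out 1 array. The covariate of 18S level, chosen after seeing the data, turned Rpl27 to 0.0516, and the mean over probe sets turned Rps18 to -0.0596 (interaction -0.0356). The interaction's median ran from 0.00564 to 0.062 over arrays left out. Between tissues, centring gave 36 higher, 4 lower and a median of 0.735 in wild type (Rplp0 0.00503) and 37, 4 and 0.86 in knockout. Joint quantile normalization gave 1 higher and -0.471 in wild type, and 2 and -0.379 in knockout. The median was -0.934 with brighter probe sets in wild type, -1.14 and -0.985 with means of probe sets, and -1.14 and -0.949 without probe sets ending in _x_at or _s_at. Leaving out 1 array gave medians of -1.04 to -0.975 in wild type and -0.931 to -0.889 in knockout, and 0 to 1 higher in knockout. The cause of these shifts was not tested.

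Equal replicate numbers do not pair arrays by the labels. Deviations of same-numbered nerve arrays correlated at 0.026, 0.305 and 0.216, each best with its own number, and those of motoneurons at 0.0904, -0.0643 and -0.0789. With the replicate block, 0 members passed in either genotype comparison or the interaction, and 44 were lower in each tissue comparison.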
